A study of Homo sapiens with 12 samples.

Results

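The messenger RNAs of 9 genes that encode ligands of natural killer (NK) cell receptors were followed across 12 RNA-seq libraries of the neuroblastoma line SK-N-DZ. The genes were chosen by name, as MICA, MICB, ULBP1, ULBP2, ULBP3, NCR3LG1, PVR, NECTIN2 and NECTIN3, and all 9 were found among the 43769 genes of the count table. Of these, 7 passed the filter on low counts and were tested together with the other genes, 15828 in all, and MICA and ULBP3 did not pass it. The study asked how loss of ARID1A, a DNA-binding subunit of the SWI/SNF chromatin remodelling complex, alters the response of MYCN-amplified neuroblastoma cells to interferon gamma (IFNγ).

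There were 4 groups of 3 libraries. Control libraries (C) were labelled WT and received neither agent, and IFN libraries (I) were labelled WT and received IFNγ for 24 h. Dox libraries (D) were labelled shARID1A and received doxycycline for 4 days to induce a short hairpin RNA against ARID1A, and Dox IFN libraries (DI) received both. The methods of the study describe the inducible cells as clonal lines transduced with a lentiviral hairpin vector, so each is the progeny of a single cell. The study describes the sequenced cells as shARID1A cells of SK-N-DZ, by which the libraries labelled WT would also carry the hairpin, not induced. No library had doxycycline without the hairpin, so an effect of the drug, of the hairpin and of lower ARID1A cannot be told apart. The labels do not say that the replicates were separate cultures, and the p-values then measure the spread between these libraries, which may be technical.

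MICA, MICB and the ULBP proteins are ligands of NKG2D, an activating receptor of NK cells and some T cells, and are known to be kept low in healthy cells and raised by DNA damage, infection or other stress. NCR3LG1, also named B7-H6, is a ligand of the activating receptor NKp30. PVR and NECTIN2 are nectin family adhesion proteins that are bound by the activating receptor DNAM-1 and by the inhibitory receptor TIGIT, NECTIN2 also by the inhibitory receptor PVRIG, and NECTIN3 is an adhesion partner of other nectins. In neuroblastoma, which often has little MHC class I on its surface, such ligands bear on recognition by NK cells.

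In GENCODE 29 (GRCh38), MICA (chr6:31399784-31415315) and MICB (chr6:31494881-31511124) lie near each other in the MHC class I region, on the plus strand. ULBP2 (chr6:149942000-149949235) and ULBP1 (chr6:149964007-149973710), on the plus strand, and ULBP3 (chr6:150063150-150069095), on the minus strand, form a separate cluster on the same chromosome. NCR3LG1 lies at chr11:17351726-17377341, PVR at chr19:44643798-44663583, NECTIN2 at chr19:44846175-44889228 and NECTIN3 at chr3:111070071-111275563, all on the plus strand. Promoter windows of 4 NKG2D ligands are shown because MICA and MICB, which have similar windows, gave different readings, and because ULBP1 and ULBP2, which share a repeated motif, gave different readings with doxycycline. Each window runs from 250 bases before to 50 bases after the RefSeq start on the plus strand of GRCh38.p14, at chr6:31403345-31403644 for MICA, chr6:31497895-31498194 for MICB, chr6:149963693-149963992 for ULBP1 and chr6:149941764-149942063 for ULBP2. Capitals mark the GC box GGGCGG, on either strand, in MICA and MICB, and the half-site TGACG of the cyclic AMP response element, on either strand, in ULBP1 and ULBP2.
MICA: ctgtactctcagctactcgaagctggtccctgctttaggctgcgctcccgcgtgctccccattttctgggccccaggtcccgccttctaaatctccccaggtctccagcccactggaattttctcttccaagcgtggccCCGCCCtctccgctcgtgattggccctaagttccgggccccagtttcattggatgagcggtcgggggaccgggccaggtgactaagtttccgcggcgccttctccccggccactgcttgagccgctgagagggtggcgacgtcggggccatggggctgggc
MICB: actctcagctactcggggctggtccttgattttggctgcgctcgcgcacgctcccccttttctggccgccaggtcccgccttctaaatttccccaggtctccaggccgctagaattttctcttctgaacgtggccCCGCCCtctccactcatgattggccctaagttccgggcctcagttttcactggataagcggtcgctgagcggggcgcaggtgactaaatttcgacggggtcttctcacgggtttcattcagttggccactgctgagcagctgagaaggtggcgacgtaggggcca
ULBP1: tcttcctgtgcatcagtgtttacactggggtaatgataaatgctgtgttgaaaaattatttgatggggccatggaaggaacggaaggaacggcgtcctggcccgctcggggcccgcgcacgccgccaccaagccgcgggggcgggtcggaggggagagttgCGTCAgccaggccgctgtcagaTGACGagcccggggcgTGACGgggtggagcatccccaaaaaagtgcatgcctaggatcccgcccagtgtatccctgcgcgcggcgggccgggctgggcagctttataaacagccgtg
ULBP2: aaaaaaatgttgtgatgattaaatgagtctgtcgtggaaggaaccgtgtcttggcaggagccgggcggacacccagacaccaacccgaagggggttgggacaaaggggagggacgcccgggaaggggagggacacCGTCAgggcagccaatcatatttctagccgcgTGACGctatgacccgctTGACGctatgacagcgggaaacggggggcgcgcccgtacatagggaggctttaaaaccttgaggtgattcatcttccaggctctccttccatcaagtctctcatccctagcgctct

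The MICA and MICB windows could be aligned over 284 bases, of which 247 (87%) were identical, and each held a single GC box. A GC box was found in 8 of the 9 members' windows and in 45% of the 35116 RefSeq promoter windows. TGACG occurred 3 times in ULBP1 and 3 times in ULBP2, and also in NECTIN2, where 2 overlapping matches formed the palindrome TGACGTCA. Of all windows, 24.6% held at least 1 TGACG, 1.4% held at least 3, and 1.85% held TGACGTCA. TGATGNAAN, an ATF4 and C/EBP composite motif, was found in ULBP2 only of the 9 members and in 3.61% of all windows. The interferon-related motifs TTCNNNGAA (7.66% of all windows) and a GAAA pair spaced by 2 bases (3.57%) and a heat shock element of inverted GAA repeats (0.49%) matched no member, each searched on both strands, which says only that these letters were not in these windows.

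Library totals lay between 16469832 and 21790869 counts, so that 3 counts, the limit used here for a gene that is not detected, corresponded to 0.135 to 0.187 counts per 1000000 (CPM). Levels are given as CPM of the library size after TMM scaling, as mean ± SD over 3 libraries. All 8 adrenergic neuroblastoma markers were present, with a summed level of 3600 to 4560 CPM, while the summed level of 10 NK and cytotoxic lymphocyte markers was 0.621 to 2.72 CPM, with 2 at 0 in every library, and that of 8 markers of other cells was 2.25 to 8.49 CPM, again with 2 at 0. Of the neuroblastoma markers, HAND2 was lower with the block in D than in C (657 ± 264 CPM in C, 424 ± 127 in D, adjusted p = 0.00603) and in DI than in I (588 ± 244 CPM in I, 413 ± 168 in DI, adjusted p = 0.0151), and DBH in D than in C (345 ± 89.7 CPM in C, 181 ± 165 in D, adjusted p = 0.0433). Without the block neither was called. TH stood at 41.7 ± 36.1 CPM in C and 3.02 ± 3.49 in D (adjusted p = 0.219, or 0.151 with the block). The groups overlapped, and in replicate 2 TH was higher with doxycycline, at 3.13 CPM in C and 7.04 in D. The targeted gene ARID1A stood at 183 ± 16.4 CPM in C and 171 ± 22.1 in D, and these libraries overlapped (log2 fold change -0.09, SE 0.11, adjusted p = 0.788). It stood at 196 ± 5.71 CPM in I and 144 ± 9.69 in DI, which did not overlap (-0.44, SE 0.11, adjusted p = 0.115, or 0.0111 with the replicate number as a block). The directions below are therefore those of libraries labelled with doxycycline and not of a measured ARID1A level. For its SK-N-DZ knockdown line the study itself reported loss of ARID1A by RT-qPCR and decreased ARID1A protein by Western blot. The treatment with IFNγ was seen in IRF1, an interferon-induced transcription factor, at 2.14 ± 0.288 CPM in C and 411 ± 31 in I, and at 2.34 ± 0.505 in D and 367 ± 21.9 in DI.

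Each test below is edgeR's quasi-likelihood test in a model of the 4 groups, with p-values adjusted by the Benjamini-Hochberg method over all 15828 genes and a call at 0.05. Libraries with the same replicate number deviated from their group means together, so the fit with that number as a block is given wherever it changed a call. No member was called without the block. In I against C, 0 of 7 were called where 2.21% of all genes were, in DI against D 0 of 7 (1.72%), in D against C 0 of 7 (1.23%) and in DI against I 0 of 7 (0.67%). The test of whether the IFNγ response differed with doxycycline called 0 members and 0% of all genes, with 99 genes at an unadjusted p under 0.05.

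With the block, 2 of 7 members were higher in I than in C (6.02% of all genes were called in either direction), 2 of 7 in DI than in D (4.46%), 2 of 7 in D than in C (13.9%) and 1 of 7 in DI than in I (10.5%). These were MICB and NECTIN2 for IFNγ in both settings, ULBP1 and NCR3LG1 for doxycycline alone, and ULBP1 for doxycycline under IFNγ. DESeq2 without a block called MICB in both IFNγ comparisons (2.85% and 2.24% of the genes to which it gave an adjusted p) and ULBP1 in both doxycycline comparisons (4.77% and 3.34%), for which it gave an adjusted p to 5 and 6 of the 7 members. For the difference between responses the blocked fit again called 0% of genes and DESeq2 0.00377%, which was 1 gene and no member.

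**Figure D1:**
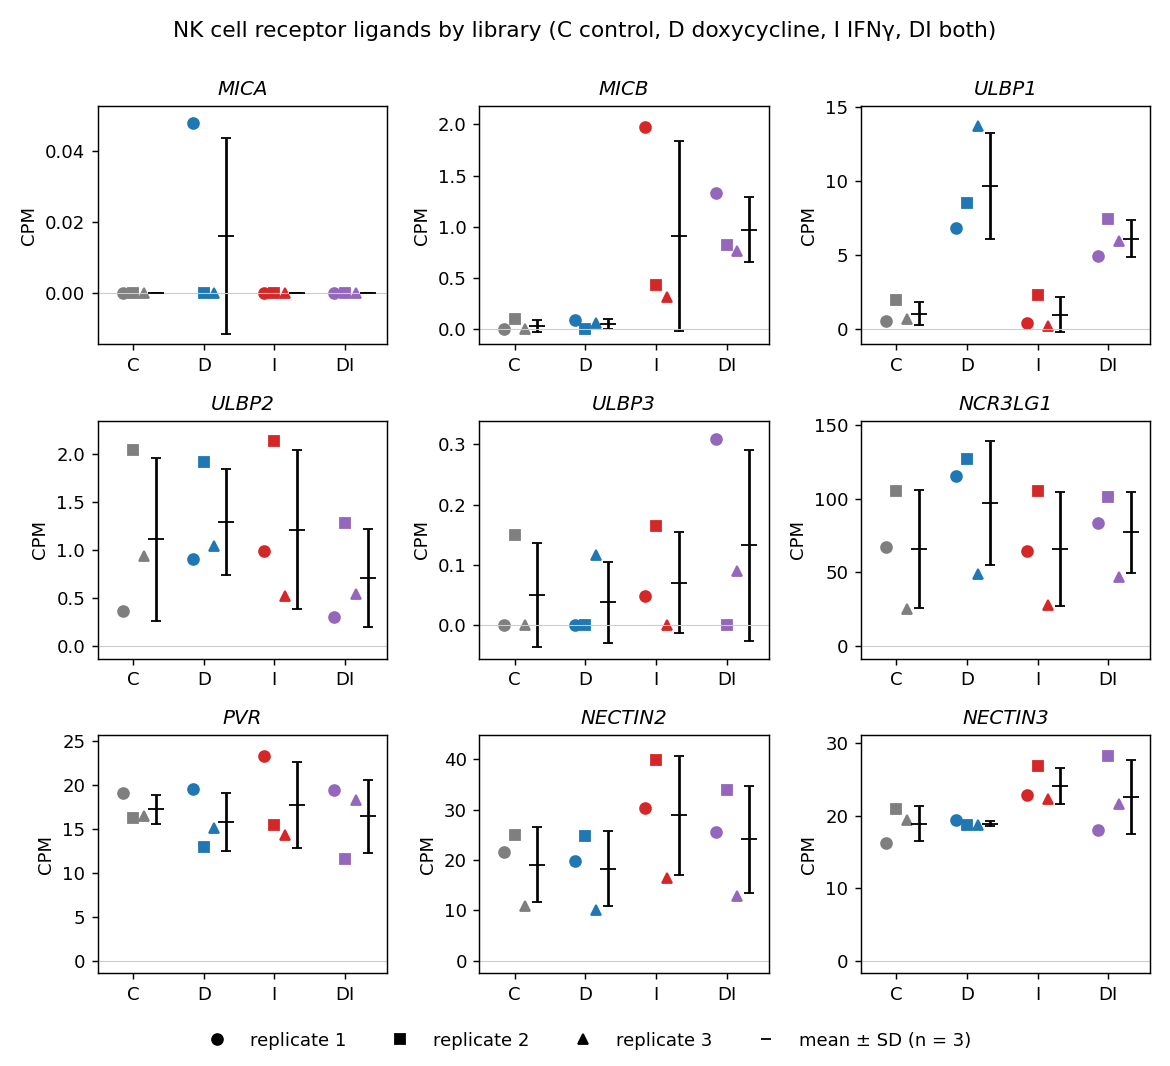
Level of each ligand in CPM in the 12 libraries, by group, with symbols for the replicate number and the mean ± SD of 3 libraries in black. Each panel has its own axis. ULBP1 was 6.82 to 13.7 CPM in D and 0.492 to 1.94 in C, MICB was above 0.3 CPM in the IFNγ libraries only, and MICA was counted once.

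ULBP1, an NKG2D ligand held to the membrane by a lipid anchor, was the member with the widest difference between libraries with and without doxycycline. In replicates 1 to 3 the C libraries held 8, 39 and 10 counts and the D libraries 143, 164 and 236. The I libraries held 8, 42 and 3 counts and the DI libraries 96, 145 and 132. Every doxycycline library was above every library without the drug, and the share of all genes that separate in this way is not given here. In C and I replicate 2 was the highest. In such bulk libraries, fewer cells with a transcript and less of it per cell cannot be told apart.

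The mean level of ULBP1 was 1.02 ± 0.799 CPM in C and 9.66 ± 3.57 in D, a log2 fold change of 3.22 (SE 0.81) with an adjusted p of 0.0922, or 3.43 (SE 0.59) and 0.00503 with the block. Under IFNγ it was 0.948 ± 1.17 CPM in I and 6.1 ± 1.26 in DI, a log2 fold change of 2.69 (SE 0.8) with an adjusted p of 0.192, or 2.92 and 0.0127 with the block. Between libraries of the same number the ratio of D to C was 13.9, 4.38 and 21.9, and that of DI to I was 12.4, 3.25 and 37.8, so that both were smallest for replicate 2. DESeq2 gave adjusted p-values of 0.000588 and 0.00978. The exact permutation test of 3 libraries against 3 gave p = 0.1 in both, the smallest it can give, and groups that did not overlap were also seen for 19.2% of all genes in D against C and 16.6% in DI against I.

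In the fit without the block, the call for ULBP1 depended on the libraries included. Without I replicate 2, the library with 42 counts, the adjusted p was 0.0493 in DI against I, with a log2 fold change of 4.42, and 0.0316 in D against C, where the fold change stayed at 3.22. Without replicate 2 of every group it was 0.0464 in D against C, with a log2 fold change of 4.17. IFNγ gave log2 fold changes of ULBP1 of -0.13 against C (adjusted p = 1) and -0.66 against D (adjusted p = 1).

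The share of counts from mitochondrial messenger RNAs also differed with doxycycline, at 3.35 to 4.99% in C and 0.856 to 1.3% in D, and at 2.9 to 4.42% in I and 0.768 to 2.58% in DI, and its part in the ULBP1 result was not tested. ATF4, a transcription factor of the integrated stress response, stood at 314 ± 53.6 CPM in C and 447 ± 63.2 in D, and at 261 ± 57.6 in I and 392 ± 24 in DI. Its log2 fold changes were 0.51 (adjusted p = 0.215) and 0.59 (adjusted p = 0.196, or 0.0369 with the block). DDIT3, a target of ATF4, stood at 4.53 ± 0.931 CPM in C and 13.7 ± 10.5 in D (adjusted p = 0.194, or 0.0317 with the block) and at 5.05 ± 1.25 in I and 12 ± 3.86 in DI (adjusted p = 0.364). The part of these genes, and of the markers HAND2, DBH and TH, in the ULBP1 result was not tested either.

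ULBP2, a second lipid-anchored NKG2D ligand, lies next to ULBP1 in the cluster. It had 6, 41 and 15 counts in the C libraries, 19, 37 and 18 in the D libraries, 20, 39 and 10 in the I libraries and 6, 25 and 12 in the DI libraries. All 4 groups overlapped, and replicate 2 was the highest in each. The log2 fold changes were 0.2 (SE 0.72) in D against C, -0.77 in DI against I, 0.11 in I against C and -0.86 in DI against D, with adjusted p-values of 0.943, 0.766, 1 and 1. Of the 100-base stretches of the ULBP2 transcript, 11.9% occur also in RAET1G or RAET1L, so that reads could have been shared, but RAET1L had no count in any library and RAET1G at most 0.149 CPM.

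ULBP3, which lies further along the cluster, had 0, 3 and 0 counts in the C libraries, 0, 0 and 2 in the D libraries, 1, 3 and 0 in the I libraries and 6, 0 and 2 in the DI libraries. Only DI replicate 1 exceeded 3 counts, so no difference was detectable at this depth. The 3 remaining human ligands of NKG2D, RAET1E, RAET1G and RAET1L, were likewise too low to be tested.

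MICB, a transmembrane NKG2D ligand, was counted mainly in the IFNγ libraries. Its counts were 0, 2 and 0 in the C libraries, 2, 0 and 1 in the D libraries, 40, 8 and 6 in the I libraries and 26, 16 and 17 in the DI libraries. All 6 IFNγ libraries were above all 6 others, and the share of all genes that separate in this way is not given here. I replicate 1 held most of the counts of its group. The mean level was 0.91 ± 0.928 CPM in I against 0.0331 CPM in C, and 0.974 ± 0.314 CPM in DI against 0.0511 CPM in D.

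The summed counts of MICB were 2 in C and 54 in I, a ratio of CPM of 24.6 with an exact 95% interval of 6.48 to 208, and 3 in D and 59 in DI, a ratio of 18.5 (6.03 to 92.3). These intervals cover counting error only. The adjusted p was 0.0892 in I against C (0.0261 with the block, 0.03 by DESeq2) and 0.125 in DI against D (0.0178 with the block, 0.0278 by DESeq2). The fitted log2 fold changes of 4.4 and 4.07 depend on the prior count and are no bound. MICB passed the low-count filter only through the IFNγ libraries, and groups that did not overlap were seen for 15.1% of all genes in I against C and 9.55% in DI against D. Between DI and I the log2 fold change was 0.09 (SE 0.81, adjusted p = 0.987), with 59 and 54 counts.

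MICA, the neighbour of MICB, was counted once among 228922283 counts over all libraries, in D replicate 1, which allows a pooled level of up to 0.0243 CPM. In the IFNγ libraries, where MICB stood at 0.314 to 1.98 CPM, its near relative with an 87% identical promoter window had 0 counts. None of the 100-base stretches of either transcript occurred in the transcript of another gene. MICA shares 62 exonic bases with HCP5, a noncoding RNA with 0 to 92 counts, and whether the counting removed reads there is not given in the sources used here.

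Scaled by length, as CPM divided by the exonic length in kilobases (RPKM), the 5 NKG2D ligands together came to 0.43 to 2.31 RPKM in control libraries and 2.9 to 5.26 RPKM with doxycycline, and with IFNγ to 0.551 to 2.63 RPKM in I and 2.59 to 3.61 RPKM in DI. ULBP2 was the largest component in every C library, at 63.6 to 77.7% of the sum, and ULBP1 in every D and DI library, at 65.6 to 82.7% and 60.7 to 71.2%. In C replicate 1 this rested on 6 counts of ULBP2 against 8 of the longer ULBP1. MICB supplied 0 to 1.54% in C and 5.94 to 43.7% in I.

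**Figure D2:**
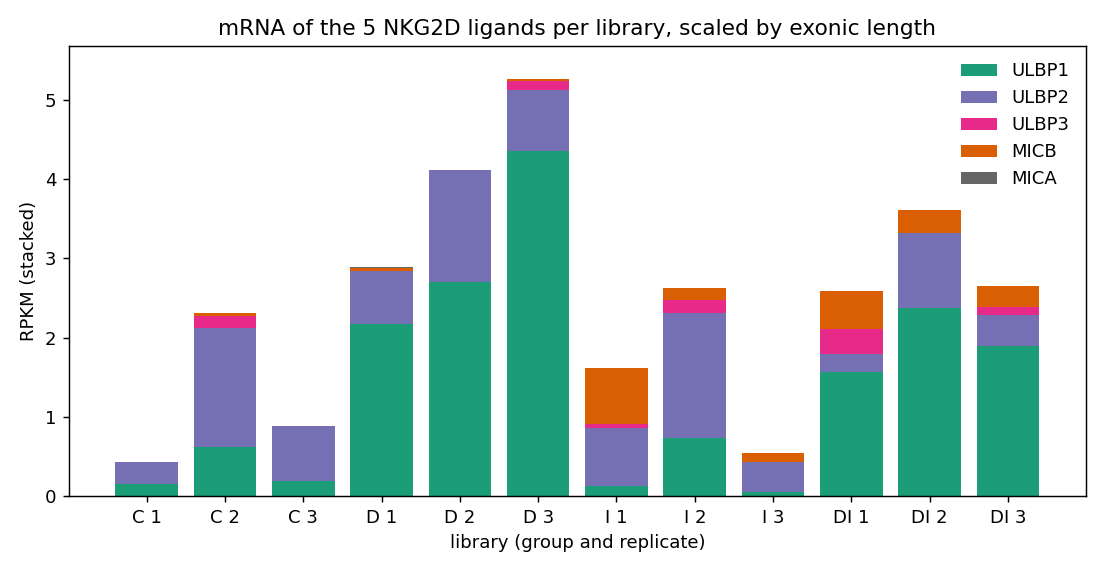
Stacked levels of the 5 NKG2D ligands in RPKM in each of the 12 libraries, each colour 1 gene. The green ULBP1 segment makes up 65.6 to 82.7% of the D bars and 22.3 to 36.4% of the C bars, and the orange MICB segment is widest in the I and DI bars.

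NCR3LG1, the NKp30 ligand B7-H6, had the highest mean level per exonic length of the 9 in each group. It stood at 10.2 ± 6.21 RPKM in C and 15 ± 6.53 RPKM in D, and with IFNγ at 10.2 ± 6.04 RPKM in I and 12 ± 4.24 RPKM in DI. In C replicate 3 PVR was above it, and in I replicate 3 NECTIN2 was, at 4.38 against 4.28 RPKM. The counts of NCR3LG1 were 1092, 2120 and 407 in the C libraries, 2414, 2445 and 841 in the D libraries, 1308, 1930 and 526 in the I libraries and 1623, 1964 and 1048 in the DI libraries. In each group replicate 2 was the highest and replicate 3 the lowest, and the 4 groups overlapped.

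The level of NCR3LG1 was 65.9 ± 40 CPM in C and 96.8 ± 42 in D, a log2 fold change of 0.55 with an adjusted p of 0.745. Between libraries of the same number D was 1.71, 1.2 and 1.92 times C, and with the block the log2 fold change was 0.65 with an adjusted p of 0.0247. Under IFNγ, DI was 1.29, 0.957 and 1.71 times I, and the adjusted p was 0.937, or 0.179 with the block. Between I and C the log2 fold change was 0 (adjusted p = 1) and between DI and D -0.33 (adjusted p = 1).

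NECTIN2, which is bound by DNAM-1, TIGIT and PVRIG, followed the replicate number in the same order. Its counts were 349, 502 and 173 in the C libraries, 615, 729 and 313 in the I libraries, 418, 480 and 175 in the D libraries and 497, 662 and 285 in the DI libraries. Replicate 2 was again the highest and replicate 3 the lowest in each group, and the groups overlapped, but within each number the IFNγ library was above its counterpart.

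The ratio of I to C for NECTIN2 was 1.42, 1.59 and 1.52, and that of DI to D was 1.28, 1.37 and 1.27. The log2 fold change was 0.6 (SE 0.46, adjusted p = 0.997) in I against C and 0.39 (SE 0.46, adjusted p = 1) in DI against D. With the block the same comparisons gave 0.59 (SE 0.088, adjusted p = 0.00181) and 0.38 (SE 0.088, adjusted p = 0.0325), while DESeq2, which had no block, gave adjusted p-values of 1. The ratio of DI to I was 0.838, 0.854 and 0.783 (adjusted p = 0.901, or 0.0679 with the block), and the difference between the 2 IFNγ responses was -0.2 on the log2 scale (SE 0.65, adjusted p = 1). NECTIN2 shares 128 exonic bases with an antisense gene, and the strand setting of the counting is not given in the sources used here.

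**Figure D3:**
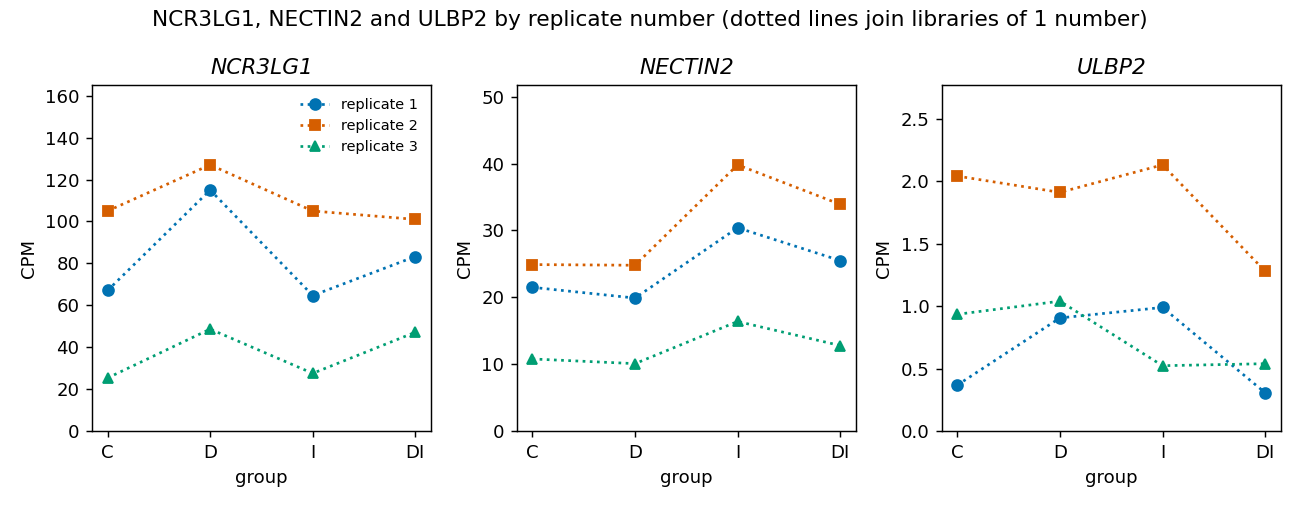
Levels of NCR3LG1, NECTIN2 and ULBP2 in CPM by group, with dotted lines that join libraries of the same replicate number. For NCR3LG1 and NECTIN2 replicate 2 lies above replicate 1 and replicate 1 above replicate 3 in all 4 groups, and the mean of NCR3LG1 over the 4 groups is 82.6, 109 and 37.2 CPM for replicates 1, 2 and 3.

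PVR, the other nectin-like ligand of DNAM-1 and TIGIT, had 310, 326 and 263 counts in the C libraries, 408, 250 and 260 in the D libraries, 471, 283 and 273 in the I libraries and 377, 227 and 406 in the DI libraries. The groups overlapped in all 4 comparisons, and the log2 fold changes lay between -0.12 and 0.05, each with an SE of 0.24. The adjusted p-values were between 0.891 and 1, and between 0.567 and 0.984 with the block. PVR shares 121 exonic bases with CEACAM19, which had 0 to 11 counts.

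NECTIN3, whose best known role is adhesion through other nectins, had 264, 422 and 312 counts in the C libraries, 462, 493 and 428 in the I libraries, 406, 363 and 323 in the D libraries and 353, 551 and 479 in the DI libraries. The I libraries were all above the C libraries, and groups that did not overlap were seen for 15.1% of all genes in I against C. For NECTIN3, DI and D overlapped. The level was 18.9 ± 2.42 CPM in C and 24.1 ± 2.46 in I, a log2 fold change of 0.35 (SE 0.17, adjusted p = 0.687, or 0.154 with the block). In DI against D it was 0.26 (SE 0.17, adjusted p = 1) and with doxycycline it was 0.01 and -0.09.

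**Figure D4:**
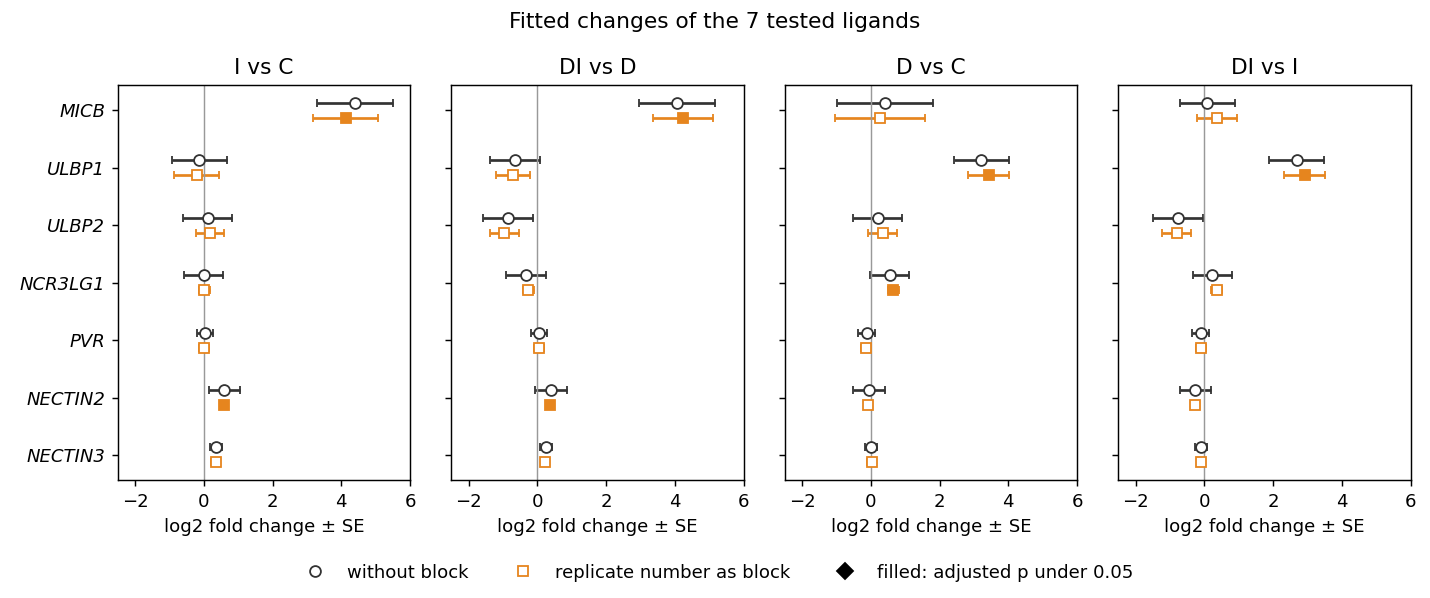
Fitted log2 fold change for the 7 tested ligands in 4 comparisons, with a standard error worked back from the F statistic of its test. Black circles are without a block and orange squares with the replicate number as a block, filled where the adjusted p was under 0.05. The points lie close together in both fits, and the SE of NECTIN2 in I against C is 0.46 without the block and 0.088 with it.

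Ordered by mean level per length in C, NCR3LG1 (10.2 ± 6.21 RPKM) was followed by NECTIN2 (5.09 ± 1.97), PVR (4.89 ± 0.454), NECTIN3 (3.05 ± 0.391), ULBP2 (0.825 ± 0.628) and ULBP1 (0.324 ± 0.254). ULBP3 and MICB were at the limit of detection, and MICA was at 0. NCR3LG1 (3.94 to 16.4 RPKM) was above NECTIN2 (2.88 to 6.65) within each of the 3 C libraries, and ULBP2 (0.273 to 1.51) above ULBP1 (0.157 to 0.616), although their ranges across libraries overlapped. In C replicate 1 ULBP2 had 6 counts and ULBP1 8, so their order there came from exonic lengths of 1349 and 3142 bases. NCR3LG1 and NECTIN2 were both above PVR (4.6 to 5.41) in C replicates 1 and 2 and below it in C replicate 3. NECTIN3 (2.62 to 3.39) was below PVR in every C library and above every ULBP gene. In C replicates 2 and 3 its place below PVR came from exonic lengths of 6184 and 3519 bases. There NECTIN3 had 422 and 312 counts and PVR 326 and 263. The longest coding transcripts have 3664 bases for NECTIN3 and 3325 for PVR. That of NECTIN2 has 2466, against an exonic length of 3747. Orders by RPKM therefore depend on the length used.

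Other ligands of NK cell receptors were read from lists chosen with earlier results of these data known. Of 6 other nectins and nectin-like genes 5 were tested and none was called in any comparison without the block, while with it CADM1, the ligand of the receptor CRTAM, was lower in DI than in I. Of 15 ligands of other activating or adhesion receptors 7 were tested, and ICAM1, the ligand of the integrin LFA-1, was the only one higher with IFNγ, at 0.0497 CPM in C and 36.6 ± 11.5 in I (adjusted p = 0.000283) and at 0 in D and 16.7 ± 11.2 in DI (adjusted p = 0.000503). With at most 3 counts in any library without IFNγ, ICAM1 passed the low-count filter only through the IFNγ libraries. With the block ICAM1 was lower in DI than in I and CALR lower in D than in C.

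Of 12 ligands of inhibitory receptors 9 were tested, and HLA-B, HLA-C, HLA-E and HLA-F were among those higher with IFNγ both with and without doxycycline. HLA-B, HLA-C and HLA-F, with at most 12, 4 and 0 counts in any library without IFNγ, passed the low-count filter only through the IFNγ libraries. HLA-E, the ligand of the inhibitory receptor NKG2A, stood at 1.78 ± 1.34 CPM in C and 507 ± 56.7 in I (adjusted p = 3.59e-05), and at 1.06 ± 1.09 in D and 340 ± 86.1 in DI (adjusted p = 4.04e-05). HLA genes resemble each other, so reads may have been split between them. None of the 9 was called with doxycycline without the block. With it CLEC2D, the ligand of the inhibitory receptor CD161, was higher in D than in C (2.93 ± 0.586 CPM in C, 6.28 ± 2.43 in D, adjusted p = 0.122, or 0.0303 with the block).

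Of 7 genes that act in the release of NKG2D ligands from the cell surface, all 7 were tested. PDIA6, a disulfide isomerase needed for MICA shedding, was higher with IFNγ, at 168 ± 4.25 CPM in C and 284 ± 29.2 in I (log2 fold change 0.75, adjusted p = 0.00137) and at 170 ± 13.7 in D and 246 ± 17.5 in DI (0.54, adjusted p = 0.0179). The block added the proteases MMP2, lower in I than in C, in DI than in D and in D than in C, and ADAM10, lower in D than in C. Of 19 regulators tied to NKG2D ligand or stress transcription 18 were tested, and IRF1 was among those higher with IFNγ, while none was called with doxycycline without the block. With it DDIT3 and ATM were among those higher and CHEK2 was lower in D than in C, ATF4 and ATR were among those higher and CHEK2 was lower in DI than in I, and for IFNγ MYCN was lower in both settings and E2F1 lower in I than in C.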

How the data were processed

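Messenger RNA of 12 SK-N-DZ libraries (4 groups of 3, grouped by their titles) was analysed from the raw counts per gene that the authors deposited, as a single table of 43769 genes, of which 17165 had no count. Aligner, counter, strand setting and genome build are not given in the sources used here, and GENCODE 29 (GRCh38) held every identifier of the table. The submitters' processing notes name DESeq2. Their 3 comparison tables, which hold fold changes, p-values and 18 per-library columns with names that no label explains, were not used.

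Counts were filtered (filterByExpr, minimum count 10), scaled by TMM and tested two-sided with edgeR 4.0.16 in R 4.3.3 in a model of 4 groups, with Benjamini-Hochberg adjustment over 15828 genes. The SE of each edgeR log2 fold change was worked back from its test and not estimated by the fit itself. It is the absolute log2 fold change divided by the square root of the F statistic. Scripts were tested on simulated data. Alternatives were the replicate number as a block, DESeq2 1.42.0, DESeq2 size factors, library size alone, no filter, the libraries of 2 groups only, and leaving out each library. Leaving out a replicate number from all groups was added after seeing the data. The groups share replicate numbers in the labels, with no batch or day named. Over genes, deviations from group means correlated at 0.35 to 0.864 in the 18 pairs of libraries with the same number. The numbers were therefore taken to pair the libraries. In the 36 pairs with other numbers the range was -0.68 to 0.17. Deviations sum to 0 within each group, so these low values follow in part from the high ones and are no separate evidence. Replicates differed by more than sampling noise (chi-square per gene 19 to 82.8). Total counts of 16469832 to 21790869 set the precision, and intervals and detection limits cover counting error only.

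RPKM used GENCODE exonic lengths, which join the exons of all transcripts of a gene, so orders by RPKM depend on that choice. Promoter windows came from RefSeq (GRCh38.p14), where all 9 members matched, and were aligned with Biopython 1.88. The members and lists were chosen with earlier results of these data known. Named genes were all members, up to 4 tested genes of each list with the smallest adjusted p in each comparison, ARID1A, IRF1, ATF4 and, for each member called, the 3 genes most like it. As no member was called without the block, the last rule named none, and those given are for members called with it. Genes of the lists named because they were called with the block were chosen after their values were seen, as were RAET1G and RAET1L as genes that share sequence with ULBP2. Some genes of these lists are not reported here.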

Additional observations from a re-analysis of the deposited data

How the results depend on the processing

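Setting the replicate number as a block raised the number of members called from 0 to 2 in I against C, 2 in DI against D, 2 in D against C and 1 in DI against I, and DESeq2 raised each of these 4 counts to 1. DESeq2 size factors, library size alone, no count filter and the libraries of 2 groups only called no member. The blocked fit changed no other call of a member. When libraries were left out the count ranged from 0 to 1 in D against C and from 0 to 1 in DI against I, where the call was ULBP1 without I replicate 2 in both and, in D against C, also without replicate 2 of every group. Over all genes the block gave 953 calls in I against C, 706 in DI against D, 2200 in D against C and 1658 in DI against I, against 350, 273, 194 and 106 without it. DESeq2 called 529, 405, 650 and 471 in the same order and 1 gene for the difference between responses. Without the filter 119 genes were called in D against C, and with the libraries of 2 groups only 16 in D against C and 0 in DI against I, whereas library size alone gave 288 and 119. Leaving out single libraries gave 42 to 195 calls in D against C and 35 to 96 in DI against I. Leaving out replicate 1 or 3 of every group left 0 and 1 calls in D against C and 0 and 2 in DI against I.

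Directions turned for log2 fold changes that no fit called. With the replicate block the difference between responses was 0.1 for MICB, and with library size alone the change was 0.03 for NECTIN2 in D against C and 0.01 for NECTIN3 in DI against I. When libraries were left out, D against C ranged from -0.81 to 3.67 for MICB, -0.34 to 0.23 for NECTIN2, -0.11 to 0.08 for NECTIN3 and -0.22 to 0.97 for ULBP2. DI against I ranged from -0.3 to 1.37 for MICB, -0.13 to 0.74 for NCR3LG1, -0.59 to 0.04 for NECTIN2, -0.28 to 0.05 for NECTIN3 and -0.3 to 0.15 for PVR. I against C ranged from -0.21 to 0.16 for PVR, -1.87 to 0.74 for ULBP1 and -0.56 to 0.88 for ULBP2, and DI against D from -0.08 to 0.25 for PVR. The difference between responses ranged from -3.79 to 1.87 for MICB, -0.82 to 0.19 for NCR3LG1, -0.53 to 0.1 for NECTIN2, -0.28 to 0.12 for NECTIN3, -0.17 to 0.28 for PVR and -1.39 to 1.21 for ULBP1. The cause was not tested. ULBP1 with doxycycline (2.2 to 4.42) and MICB with IFNγ (2.67 to 7.45) kept their direction in every fit. Depth limits MICA, MICB and ULBP3, whose C libraries held at most 3 counts.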

Other observations

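For the 4 members called with the replicate number as a block, the genes with the most similar pattern over the 12 libraries were taken by the Pearson correlation of log2 CPM, a choice made after the values were seen. The libraries share the groups and replicate numbers, so the values are a description only. For MICB these were APOBEC3G (r = 0.953), a cytidine deaminase that restricts retroviruses, CIITA (0.939), the master regulator of MHC class II transcription, and COX10-DT (0.933). For ULBP1 they included PATZ1 (0.975) and NME6 (0.97). For NCR3LG1 they were LINC01667 (0.987), VANGL2 (0.984), a planar cell polarity protein, and USP21 (0.983), a deubiquitinase. For NECTIN2 they were EPHX2 (0.977), a soluble epoxide hydrolase, DGLUCY (0.974) and ARHGAP27 (0.972).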
